A study of Homo sapiens with 9 samples.

Results

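The 10 genes described are the MHC class II genes HLA-DRA, HLA-DRB1, HLA-DPA1, HLA-DPB1, HLA-DQA1, HLA-DQB1, HLA-DMA and HLA-DMB, the invariant chain gene CD74 and CIITA, the transactivator of this gene family. They were chosen by name, and all 10 were found among the 59050 gene symbols of the count table and among the 13463 genes with enough counts to be tested. RNA was sequenced from MEC1, an established cell line from a patient with chronic lymphocytic leukemia (CLL), a leukemia of mature B lymphocytes. All sample titles begin with MECPGK, a label that the sources used here do not explain. In 3 samples the cells were grown in conventional 2D culture, for which the labels give no time. In 6 samples they were mixed with a hydrogel (CELLINK Bioink), bioprinted as 3D scaffolds and crosslinked with calcium chloride, 3 of which were harvested at day 7 (3D_7d) and 3 at day 14 (3D_14d). All groups are 1 cell line, no stromal or immune cells were added and no agent was given, so the comparisons ask how 3D culture and its duration go with the RNA of this line. TRIzol, a DNase I step and then a column served for the scaffolds, while 2D cells were put on the column directly, so extraction cannot be told apart from culture in comparisons with 2D and was shared by both time points. The labels do not say whether replicates were separate cultures, and p-values measure only the spread between these samples, which may be technical.

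MHC class II molecules present peptides from endosomes to CD4+ T cells. HLA-DR, HLA-DP and HLA-DQ each pair an alpha with a beta chain and assemble with the invariant chain, which fills the peptide groove on the way to the endosome. There it is cut by proteases, HLA-DM removes its last fragment and edits the bound peptides, and HLA-DO restrains HLA-DM. In B cells these genes are expressed constitutively: RFX, CREB and NF-Y bind a conserved promoter module of X and Y boxes, and CIITA, which does not bind DNA itself, is recruited by them and sets the level of transcription.

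The promoter windows of 4 members are shown because these genes differed most in direction: HLA-DMB was higher in 3D, its partner HLA-DMA differed less, HLA-DPB1 was lower at day 7 and HLA-DRB1 represents the abundant HLA-DR chains. The RefSeq table of GRCh38.p14 promoters holds 8 of the 10 members. Each window is the 140 bases before the RefSeq start in the direction of the gene, taken from the reference and not from the alleles of MEC1. Capitals mark the core letters of the X box searched, GNNACNGAT, and those of the Y box, ATTGG, on either strand, so that ATTGG on the opposite strand reads CCAAT.
HLA-DRB1, chr6:32589849-32589988, minus strand: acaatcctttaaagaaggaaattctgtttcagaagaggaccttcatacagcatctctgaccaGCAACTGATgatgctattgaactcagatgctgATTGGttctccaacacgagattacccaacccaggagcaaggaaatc
HLA-DPB1, chr6:33075850-33075989, plus strand: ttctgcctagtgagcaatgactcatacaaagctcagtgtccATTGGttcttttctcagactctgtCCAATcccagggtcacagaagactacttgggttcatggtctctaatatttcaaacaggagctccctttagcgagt
HLA-DMA, chr6:32953098-32953237, minus strand: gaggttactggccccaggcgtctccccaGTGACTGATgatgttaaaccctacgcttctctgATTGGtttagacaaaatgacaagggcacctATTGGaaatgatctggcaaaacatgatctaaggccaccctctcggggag
HLA-DMB, chr6:32941029-32941168, minus strand: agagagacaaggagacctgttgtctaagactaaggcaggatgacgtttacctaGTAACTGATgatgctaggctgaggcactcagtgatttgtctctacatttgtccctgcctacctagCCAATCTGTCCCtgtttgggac

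In the 250 bases before the start, the X box letters were found in 4 of these 8 members (HLA-DRB1, HLA-DQB1, HLA-DMA and HLA-DMB) and the Y box letters in 7 of 8, the exception being HLA-DPA1. Among all 35116 promoter windows of the table, 5.54% held the X box letters, 32.0% the Y box letters and 2.03% both. In HLA-DRB1 and HLA-DMA the Y box letters follow the X box letters on the strand of the gene. In HLA-DMB the Y box letters occur only on the opposite strand, close to the start, where they overlap a further match to the X box letters by 2 bases. A match describes letters and not a bound site, and a missing match says only that these letters are not in the window.

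The libraries held 54662799 to 85968686 counts in genes, and the least abundant value of a member in any library was 3565 reads, so the spread between replicates and not the depth set the precision. Levels are given as CPM, counts relative to the library size after scaling by TMM factors, fold changes are edgeR estimates with their standard error (SE), and a gene was called when its Benjamini-Hochberg adjusted p was at most 0.05. The 3 3D_14d libraries differed more from each other than those of the other groups. The coefficient of variation of a member was at most 15.2% in 2D and 13.5% in 3D_7d, but reached 34% in 3D_14d, where replicate 3 was lowest for 8 of the 10 members and replicate 1 was lowest for CIITA. All 8 B cell markers listed were expressed, with a summed level of 3322 to 3365 CPM in 2D, 3807 to 4426 in 3D_7d and 4570 to 5284 in 3D_14d. Of 11 monocyte and macrophage markers 10 were below 1 CPM in every library, among them CD14, LYZ and CSF1R, with sums of 1.93 to 2.62 CPM in 2D, 1.35 to 2.78 in 3D_7d and 4.28 to 5.37 in 3D_14d. The other, ITGAM, was at 0.940 to 1.76 CPM in 2D, 0.173 to 1.66 in 3D_7d and 3.13 to 4.77 in 3D_14d. ITGAM was called up between the time points (log2 2.44). Of 9 dendritic cell markers 7 were below 1 CPM throughout, among them CD1C and CLEC9A. Their sums were 15.8 to 24.9 CPM in 2D, 9.95 to 11.6 in 3D_7d and 24.5 to 29.1 in 3D_14d. CD68 shares all its exonic bases with other genes and was listed at 0. T cell markers summed to 313 to 358 CPM in 2D, 462 to 491 in 3D_7d and 531 to 719 in 3D_14d, nearly all from TRAC (1.35 to 3.60 CPM without it), with CD3D, CD3G, CD8A and CD4 below 1 CPM. Of 7 stromal and endothelial markers 4 were below 1 CPM throughout, COL1A2, DCN, VWF and CDH5, and the sums were 23.5 to 26.7 CPM in 2D, 38.1 to 55.2 in 3D_7d and 53.8 to 80.2 in 3D_14d. Among the others PECAM1 was higher in 3D (log2 1.61 and 2.22), while COL1A1 (-1.21) and PDGFRB (-3.00) were lower at day 7. The part of these sums in the members' values was not tested, and in bulk RNA a smaller share of expressing cells and less RNA per cell cannot be told apart.

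Against 2D, HLA-DMB was the member that rose at both time points, 2.58-fold in 3D_7d and 2.14-fold in 3D_14d. At day 7 CIITA also rose, while HLA-DPB1 fell to 0.504 of its 2D level and no other classical chain passed the test. At day 14 CD74 rose, and the log2 fold changes of the 6 classical chains lay between -0.02 and 0.47 without passing it. From day 7 to day 14 HLA-DRA, HLA-DRB1, HLA-DPB1, HLA-DQB1 and CD74 rose and CIITA fell, so that CIITA and the HLA-DR chains changed in opposite directions.

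**Figure D1:**
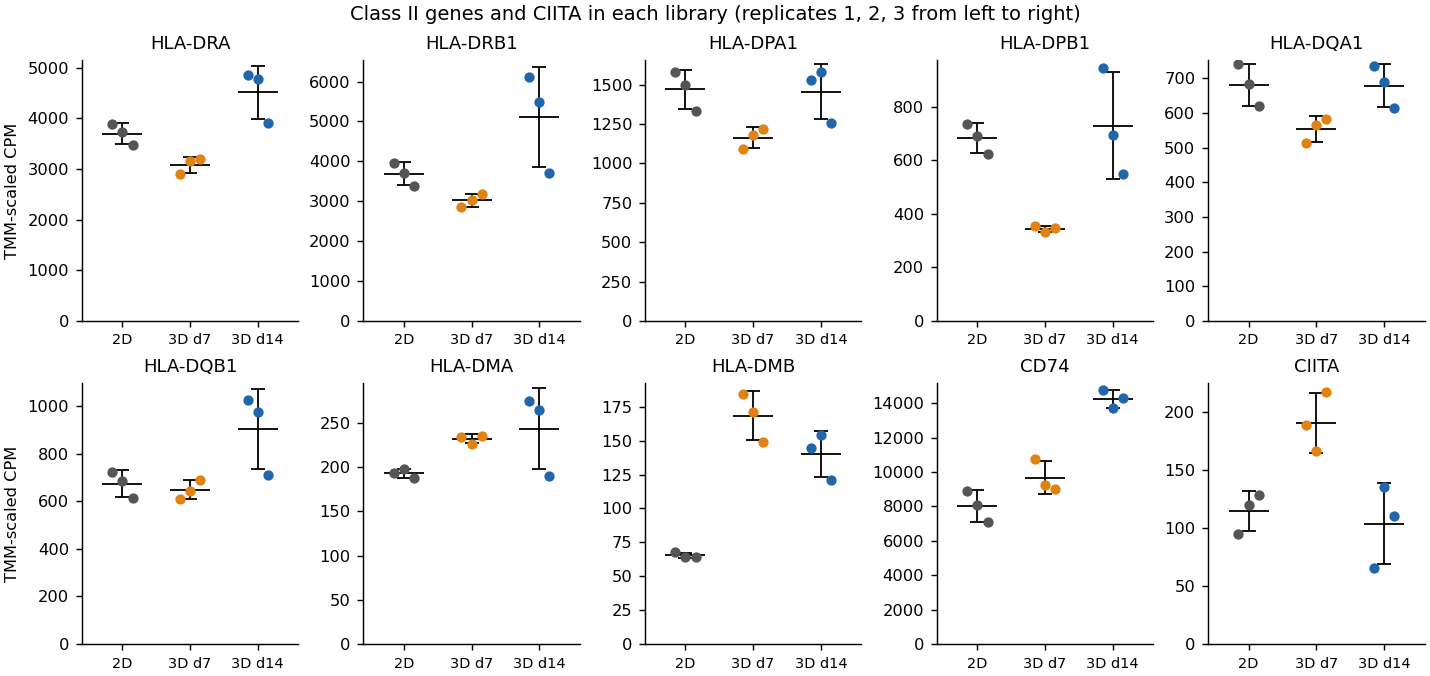
TMM-scaled CPM (vertical axis, starting at 0) of each member in the 9 libraries, with replicates 1 to 3 from left to right and the mean ± SD of each group in black. HLA-DMB is higher in all 6 3D libraries than in 2D, HLA-DPB1 lies between 332 and 353 CPM in 3D_7d against 625 to 736 in 2D, and the 3D_14d libraries are the most spread.

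HLA-DRA (chr6:32439878-32445046, plus strand) encodes the alpha chain of HLA-DR. It was measured at 3890, 3736 and 3469 CPM in 2D, at 2902, 3148 and 3202 CPM in 3D_7d and at 4859, 4778 and 3906 CPM in 3D_14d. The 3 groups did not overlap, with 3D_7d lowest and 3D_14d highest. Relative to 2D it differed on the log2 scale by -0.26 ± 0.14 in 3D_7d (adjusted p = 0.135) and by 0.29 ± 0.14 in 3D_14d (adjusted p = 0.114), and neither was called. HLA-DRA rose from day 7 to day 14 (0.55 ± 0.14, adjusted p = 0.0105), a call that was lost without the filter on low counts (adjusted p = 0.183).

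HLA-DRB1 (chr6:32578769-32589848, minus strand) encodes the main HLA-DR beta chain. It was at 3956, 3715 and 3384 CPM in 2D, at 2858, 3030 and 3191 CPM in 3D_7d and at 6128, 5493 and 3706 CPM in 3D_14d. All 3D_7d libraries were below 2D, and 2 of the 3 3D_14d libraries were far above it while replicate 3 lay within its range. The differences from 2D were -0.28 ± 0.17 (adjusted p = 0.205) for 3D_7d and 0.47 ± 0.17 (adjusted p = 0.0505) for 3D_14d, and HLA-DRB1 rose by 0.76 ± 0.18 between the time points (adjusted p = 0.00778). HLA-DRB1 has near-identical paralogs such as HLA-DRB5, and the alleles of MEC1 differ from the reference by an amount not known here, so the assignment of reads among beta chains is uncertain.

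HLA-DPA1 (chr6:33064569-33080710, minus strand) and HLA-DPB1 (chr6:33075990-33089696, plus strand) encode the chains of HLA-DP. HLA-DPA1 was at 1579, 1501 and 1335 CPM in 2D, 1092, 1182 and 1219 CPM in 3D_7d and 1533, 1578 and 1256 CPM in 3D_14d. HLA-DPB1 was at 736, 690 and 625 CPM in 2D, 353, 332 and 348 CPM in 3D_7d and 945, 694 and 551 CPM in 3D_14d. Both were lower in every 3D_7d library than in any 2D library, and both overlapped with 2D at day 14. HLA-DPB1 fell by 0.99 on the log2 scale at day 7 (SE 0.18, adjusted p = 0.000872) and rose by 1.08 ± 0.18 from day 7 to day 14 (adjusted p = 0.00134), whereas it differed by 0.09 ± 0.18 from 2D at day 14 (adjusted p = 0.711). For HLA-DPA1 the values were -0.34 ± 0.14 (adjusted p = 0.0662), 0.32 ± 0.14 (adjusted p = 0.101) and -0.02 ± 0.14 (adjusted p = 0.940), none of them called.

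HLA-DQA1 (chr6:32637357-32643652, plus strand) and HLA-DQB1 (chr6:32659467-32668383, minus strand) encode the chains of HLA-DQ. HLA-DQA1 was at 740, 683 and 620 CPM in 2D, 512, 565 and 583 CPM in 3D_7d and 734, 689 and 613 CPM in 3D_14d. HLA-DQB1 was at 724, 684 and 615 CPM in 2D, 611, 645 and 689 CPM in 3D_7d and 1027, 974 and 710 CPM in 3D_14d. HLA-DQA1 was lower in each 3D_7d library than in 2D, and HLA-DQB1 overlapped with 2D at both time points. HLA-DQB1 rose between the time points (0.48 ± 0.16, adjusted p = 0.0377), and its differences from 2D were -0.06 ± 0.16 for 3D_7d (adjusted p = 0.796) and 0.42 ± 0.16 for 3D_14d (adjusted p = 0.0509). The call between the time points was lost in 12 of 20 alternatives, among them each 3D_7d library left out (adjusted p = 0.101, 0.108 and 0.0683), 3D_14d replicate 1 (0.0567) or 2 (0.0693) and 2D replicate 1 (0.0524) or 2 (0.0611). HLA-DQA1 was called in none of the 3 comparisons, with adjusted p from 0.0910 at day 7 to 0.982 at day 14 against 2D. The antisense gene HLA-DQB1-AS1 shares 9.93% of the exonic bases of HLA-DQB1 and was at 0.779 to 3.57 CPM, far below it.

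HLA-DMA (chr6:32948613-32953108, minus strand) and HLA-DMB (chr6:32934636-32941028, minus strand) encode the peptide editor HLA-DM and lie next to each other. HLA-DMA was at 193, 198 and 188 CPM in 2D, 235, 226 and 235 CPM in 3D_7d and 275, 265 and 191 CPM in 3D_14d. HLA-DMB was at 67.6, 64.5 and 64.0 CPM in 2D, 185, 171 and 149 CPM in 3D_7d and 145, 154 and 121 CPM in 3D_14d. HLA-DMB thus lay above 2D in 6 of 6 3D libraries, while HLA-DMA did so in 5 of 6. The log2 fold change of HLA-DMB was 1.37 ± 0.14 in 3D_7d (adjusted p = 2.38e-05) and 1.099 ± 0.14 in 3D_14d (adjusted p = 0.000131), and it was called in both in every alternative fit. That of HLA-DMA was 0.27 ± 0.15 (adjusted p = 0.170) and 0.34 ± 0.15 (adjusted p = 0.0982). Between the time points neither was called (HLA-DMB -0.27 ± 0.14, adjusted p = 0.173, and HLA-DMA 0.07 ± 0.15, adjusted p = 0.754). HLA-DMB shares 32.5% and HLA-DMA 14.4% of their exonic bases with a joint gene model, AL645941.2, which had at most 0.0190 CPM in any library. How reads over shared bases were counted is not given in the sources used here, and if they were dropped they are missing from the levels and the ratio of HLA-DMB and HLA-DMA. CD68 and IFI30, which share 100% of their exonic bases with other genes, were at 0 CPM in every library. MIF, which shares 92.3%, was at most 1.55 CPM. Whether reads over shared bases were dropped was not tested.

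CD74 (chr5:150400041-150412929, minus strand) encodes the invariant chain, which is also a surface receptor for the cytokine MIF. It was at 8897, 8090 and 7086 CPM in 2D, 10752, 9258 and 8992 CPM in 3D_7d and 14766, 13730 and 14310 CPM in 3D_14d. The 3 groups did not overlap and the 3D_14d libraries were close together, unlike those of the HLA genes. CD74 rose 1.78-fold against 2D at day 14 (log2 0.83 ± 0.14, adjusted p = 0.000677) and 1.48-fold from day 7 to day 14 (0.56 ± 0.14, adjusted p = 0.0102), and the difference at day 7 was not called (0.27 ± 0.14, adjusted p = 0.131). The call between the time points was lost without 3D_7d replicate 2 (0.55, adjusted p = 0.0508) and without the filter on low counts (0.51, adjusted p = 0.211). The gene TCOF1 shares 8.20% of the exonic bases of CD74 and was at 62.8 to 190 CPM. CD74 took 0.790 to 0.944% of all assigned reads in 2D, 0.863 to 1.07% in 3D_7d and 1.27 to 1.46% in 3D_14d.

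CIITA (chr16:10877198-10936388, plus strand) is the only member outside the antigen presentation machinery proper. It was at 95.2, 120 and 129 CPM in 2D, 189, 166 and 218 CPM in 3D_7d and 66.0, 136 and 110 CPM in 3D_14d. All 3D_7d libraries were above all others, and 3D_14d overlapped with 2D, with replicate 1 at the lowest value of all 9 libraries. CIITA rose 1.67-fold at day 7 (log2 0.74 ± 0.23, adjusted p = 0.0193), fell by 0.88 from day 7 to day 14 (SE 0.23, adjusted p = 0.0133) and was not called at day 14 against 2D (-0.14 ± 0.23, adjusted p = 0.661). The day 7 call was lost without 2D replicate 1 (adjusted p = 0.0989), 2D replicate 2 (0.0538) or 3D_7d replicate 3 (0.0881), and the call between the time points without 3D_7d replicate 3 (0.0559). Without 3D_14d replicate 1 the difference from 2D at day 14 was 0.11. Of the exonic bases of CIITA 19.3% are shared with DEXI, at 21.5 to 46.3 CPM and lowest in 3D_7d, where CIITA was highest, and with AC133065.3. If reads over these bases were dropped, they are missing from the level of CIITA.

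At day 7, 2 of the 10 members were called up and 1 down, where 22.2% of all tested genes were called up and 21.2% down, and the members' counts were no higher than these shares. At day 14, 2 were called up and 0 down by edgeR, against 19.0% up and 17.2% down among all genes. No member had a lower value at day 14 at an unadjusted p under 0.05, and DESeq2 called 0 down as well. Between the time points 5 were called up and 1 down, against 14.5% and 13.6% of all genes. Groups did not overlap for 9 members in 3D_7d vs 2D, 3 in 3D_14d vs 2D and 8 in 3D_14d vs 3D_7d, where 64.6%, 49.7% and 39.3% of all genes did not. The median log2 fold change of the members was -0.16, 0.31 and 0.40 in the 3 comparisons, and that of all tested genes was -0.0039, 0.02 and -0.0012. Each pair of comparisons shares the libraries of 1 group, so these values are not independent.

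**Figure D2:**
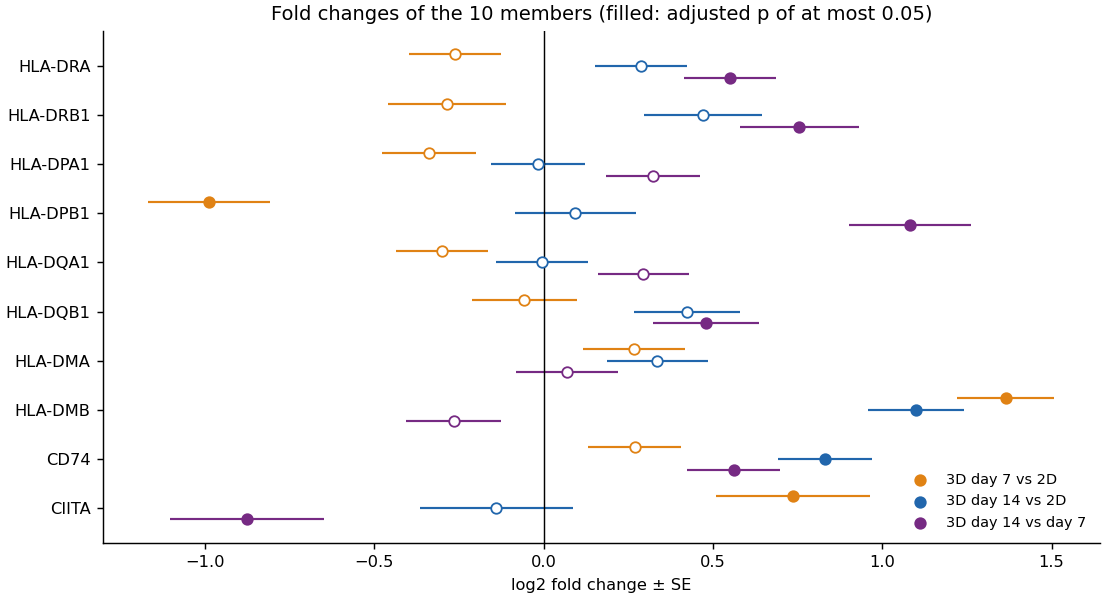
Log2 fold change ± SE (horizontal axis) of each member in the 3 comparisons, filled where the adjusted p was at most 0.05. HLA-DMB is called at both time points against 2D, HLA-DPB1 is at -0.99 at day 7 and at 1.08 between the time points, and CIITA runs from 0.74 to -0.88.

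The calls moved with the scaling and with trends across genes. Scaling by total counts alone shifted the median of all genes by -0.157 at day 7 and -0.206 at day 14, and gave 2156 genes up and 3580 down at day 7 and 1603 up and 3248 down at day 14, where TMM scaling gave 2985 up and 2853 down and 2557 up and 2318 down. On that scale 5 members were called lower at day 7 (HLA-DRA, HLA-DRB1, HLA-DPA1, HLA-DPB1 and HLA-DQA1) and HLA-DMB alone was called up. Short genes also differed from long ones: among the 1346 tested genes with 1205 to 1834 exonic bases, which include 6 members, the median log2 fold change was -0.11 at day 7 and 0.26 between the time points. With the trend with exon length removed in each library, the rise between the time points was no longer called for HLA-DRA (0.24, adjusted p = 0.156) or HLA-DQB1 (0.32, adjusted p = 0.0678). It held for HLA-DRB1 (0.43, adjusted p = 0.0348), HLA-DPB1 (1.23, adjusted p = 0.000854) and CD74 (0.65, adjusted p = 0.00241), and HLA-DMB was then called down (-0.53, adjusted p = 0.0136) and CIITA stayed down (-0.86, adjusted p = 0.0101). At day 7 the same removal left HLA-DRA at -0.0489, HLA-DRB1 at -0.0653, HLA-DPA1 at -0.25 and HLA-DQA1 at -0.22, none of them called, while HLA-DMA was called up (0.53, adjusted p = 0.00761), as it was with only the 6 samples compared (0.25, adjusted p = 0.0196). The calls of HLA-DPB1, HLA-DMB and CIITA at day 7 held (-1.11, 1.54 and 0.92). Removal of the trend with GC content acted the other way: HLA-DRA, HLA-DPA1 and HLA-DQA1 joined HLA-DPB1 as lower at day 7 (-0.35, -0.43 and -0.39). Without 3D_14d replicate 3, HLA-DRA, HLA-DRB1, HLA-DQB1 and HLA-DMA were also called up at day 14 against 2D (0.38, 0.66, 0.57 and 0.49).

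Ratios between class II genes were taken within each library on levels per kilobase of exon (RPKM), so that the scaling cancels out, and groups were compared by a two-sided exact permutation test, whose smallest p with 3 against 3 libraries is 0.1. Of the 4 partner pairs, 3 had ratios that did not overlap between 2D and 3D_7d, and HLA-DRB1 to HLA-DRA overlapped in all comparisons. The log2 ratio of HLA-DMB to HLA-DMA was -1.84 ± 0.0516 (SD, n = 3) in 2D, -0.75 ± 0.167 in 3D_7d and -1.07 ± 0.137 in 3D_14d, which is 2.13-fold and 1.71-fold higher than in 2D, without overlap. That of HLA-DPB1 to HLA-DPA1 was -2.33 ± 0.0145 in 2D, fell to -2.98 ± 0.110 in 3D_7d in all libraries and was -2.25 ± 0.283 in 3D_14d, where replicate 1 (-1.93) stood apart from replicates 2 and 3 (-2.41 and -2.42). That of HLA-DQB1 to HLA-DQA1 was -0.03 ± 0.0174 in 2D and higher in every 3D library (0.17 to 0.48). HLA-DRB1 to HLA-DRA was -0.02 to 0.04 in 2D and -0.04 to 0.01 in 3D_7d, and ranged from -0.06 to 0.35 in 3D_14d.

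**Figure D3:**
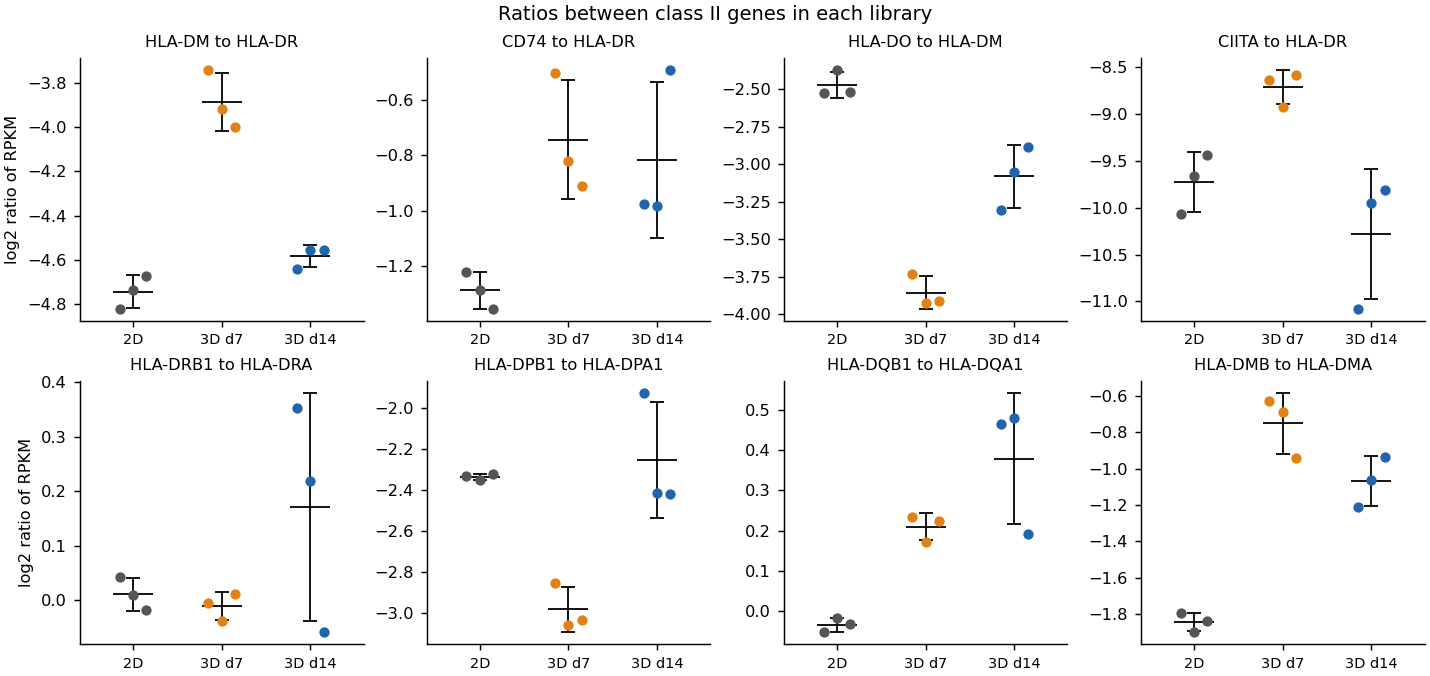
Log2 ratio of RPKM (vertical axis, a log scale with its own range in each panel) between class II genes in the 9 libraries, with the mean ± SD of each group in black. HLA-DMB to HLA-DMA and HLA-DQB1 to HLA-DQA1 are higher in each 3D library than in 2D, HLA-DO to HLA-DM is lower, and CIITA to HLA-DR is highest in 3D_7d.

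Among the ratios between functional parts, HLA-DM (HLA-DMA plus HLA-DMB) to HLA-DR (HLA-DRA plus HLA-DRB1) was 1.81-fold higher in 3D_7d than in 2D and 1.12-fold higher in 3D_14d. The invariant chain to HLA-DR was 1.46-fold and 1.38-fold higher. HLA-DO (HLA-DOA plus HLA-DOB) to HLA-DM was 0.384 and 0.657 of its 2D value. In these 6 comparisons no library of one group overlapped with the other, each with p = 0.1 in the exact permutation test. The sum for HLA-DO joins opposite changes at day 14, where the log2 fold change against 2D was -0.68 for HLA-DOA and 0.87 for HLA-DOB. CIITA to HLA-DR was 2.02-fold higher in 3D_7d than in 2D without overlap (exact permutation p = 0.1) and 0.337 of the 3D_7d value in 3D_14d (exact permutation p = 0.1), while 3D_14d overlapped with 2D (exact permutation p = 0.3). Over all 24 tests of 8 ratios the smallest Benjamini-Hochberg adjusted p of the exact test was 0.15, so none could pass the threshold, and the 4 ratios of partner chains were chosen after the levels had been seen. A ratio does not remove a trend with exon length, and no ratio was taken with that trend removed. At day 7 the log2 fold changes were 0.27 for CD74, -0.26 for HLA-DRA and -0.28 for HLA-DRB1. With the length trend removed they were 0.17, -0.0489 and -0.0653, so the ratio of CD74 to HLA-DR depends on it.

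Per kilobase of exon, HLA-DRB1 (2998 ± 233 RPKM, SD, n = 3) and HLA-DRA (2973 ± 171) were the most abundant members in 2D and their ranges overlapped. They were followed by CD74 (2454 ± 277), HLA-DPA1 (864 ± 73.1), HLA-DQA1 (387 ± 34.2) and HLA-DQB1 (378 ± 31.02), the last pair again overlapping. HLA-DMA (174 ± 4.48) and HLA-DPB1 (171 ± 13.9) overlapped too, and HLA-DMB (48.5 ± 1.43) and CIITA (7.12 ± 1.08) were lowest. In 3D_7d CD74 came first (2956 ± 290) and HLA-DMB (125 ± 13.3) lay above HLA-DPB1 (86.4 ± 2.75), without overlap in either case. In 3D_14d CD74 (4363 ± 159), HLA-DRB1 (4157 ± 1022) and HLA-DRA (3629 ± 425) were highest, and HLA-DPB1 (183 ± 49.99) was again above HLA-DMB (104 ± 12.5). The place of CD74 depends on the length used: with the canonical transcript of 1653 bases in place of the union of 3270 exonic bases it was at 4854 ± 549 RPKM in 2D, above HLA-DRB1 (3013 ± 235). CIITA has 16108 exonic bases by the annotation, and its level per kilobase would be higher if these cells use a shorter transcript.

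Counts in the gene lists stand against the shares of all tested genes already given, 22.2% up and 21.2% down at day 7, 19.0% and 17.2% at day 14 and 14.5% and 13.6% between the time points. Of the other class II genes, 5 of 7 listed were in the table and all 5 were tested, and 2 fell at day 7, 2 rose and 1 fell at day 14, and 3 rose between the time points. HLA-DOA and HLA-DOB encode HLA-DO, the inhibitor of HLA-DM. HLA-DOA was at 94.3, 119 and 92.8 CPM in 2D, 51.8, 49.8 and 54.4 CPM in 3D_7d and 55.9, 79.3 and 56.5 CPM in 3D_14d. It fell at both time points without overlap (-0.97 ± 0.17, adjusted p = 0.000665, and -0.68 ± 0.17, adjusted p = 0.00775), whereas HLA-DMB rose in the same libraries. HLA-DOB was at 8.61 to 17.4 CPM in 2D and 3D_7d and at 28.4 to 29.6 CPM in 3D_14d, and rose at day 14 (0.87 ± 0.22, adjusted p = 0.00882), while 40.4% of its exonic bases are shared with AL669918.1. HLA-DRB5, a second HLA-DR beta chain, rose at day 14 (0.67 ± 0.15, adjusted p = 0.00437), and HLA-DQA2 fell at day 7 (-0.43 ± 0.15, adjusted p = 0.0395). HLA-DQB2 rose between the time points (0.64 ± 0.18, adjusted p = 0.0186), and its differences from 2D were -0.41 ± 0.18 and 0.23 ± 0.18, neither called. The call of HLA-DOB was lost without 2D replicate 2 (adjusted p = 0.0514), that of HLA-DQB2 without 3D_7d replicate 1 (0.0633), and that of HLA-DQA2 without 2D replicate 1 (0.0981) or 2 (0.0910) or 3D_7d replicate 1 (0.0833) or 2 (0.0876).

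All 7 genes of the promoter complex that recruits CIITA were tested, and 1 rose and 2 fell at day 7, 1 fell at day 14 and 1 fell between the time points. RFX5, the subunit of RFX that contacts the X box, was at 136, 147 and 138 CPM in 2D, 200, 188 and 196 CPM in 3D_7d and 91.2, 136 and 129 CPM in 3D_14d. It rose at day 7 (0.47 ± 0.16, adjusted p = 0.0266) and fell from day 7 to day 14 (-0.71 ± 0.16, adjusted p = 0.00601), the same signs as CIITA. Its partner RFXAP, at 3.99 to 9.48 CPM, fell at day 7 (-0.82 ± 0.27, adjusted p = 0.0256), as did CREB1 (-0.41 ± 0.15, adjusted p = 0.0436), and the NF-Y subunit NFYB fell at day 14 (-0.51 ± 0.15, adjusted p = 0.0201). These calls at day 7 and day 14 were close to the threshold. That of RFX5 at day 7 was lost with any 1 of the 6 libraries compared left out (adjusted p = 0.0686 to 0.114). The call of RFXAP was lost without 2D replicate 1 (0.0656) or 3 (0.0551) or 3D_7d replicate 1 (0.0539) or 3 (0.0817), that of CREB1 without 2D replicate 1 (0.0598) or 2 (0.112) or 3D_7d replicate 2 (0.113) or 3 (0.108), and that of NFYB without 2D replicate 2 (0.0704) or 3D_14d replicate 2 (0.0537). RFXANK, NFYA and NFYC were called in no comparison, with log2 fold changes between -0.48 and 0.17. RFXANK shares 33.4% and CARM1 26.6% of their exonic bases with other genes. Of 7 coactivators used by CIITA, the arginine methyltransferase gene CARM1 fell at day 14 (-0.85 ± 0.29, adjusted p = 0.0350), a call lost without any 1 of the 2D libraries (0.104, 0.0505 and 0.0936) or without 3D_14d replicate 2 (0.0661) or 3 (0.0783), and no other call was made in the 3 comparisons.

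Among 11 tested regulators of CIITA transcription, 3 were called up and 1 down at day 7, 4 and 1 at day 14 and 1 and 2 between the time points. IRF4, a plasma cell and activation factor, rose at day 7 (1.07 ± 0.19, adjusted p = 0.000717) and fell between the time points (-1.04 ± 0.19, adjusted p = 0.00213). PRDM1 encodes BLIMP1, which silences CIITA in plasma cells, and rose at day 7 beside CIITA (1.32 ± 0.22, adjusted p = 0.000508), from 17.5 to 22.8 CPM in 2D to 41.9 to 55.9 CPM. It fell afterwards (-0.72 ± 0.22, adjusted p = 0.0266), a call lost without 3D_7d replicate 1 (0.0747) or 2 (0.0773) or 3D_14d replicate 1 (0.0523) or 3 (0.0609). The repressor gene ZBTB32 fell at day 14 (-0.63 ± 0.13, adjusted p = 0.00232) and the ETS factor gene SPI1 rose (0.89 ± 0.16, adjusted p = 0.000995), also from day 7 to day 14 (0.97 ± 0.16, adjusted p = 0.00115). In the interferon gamma pathway, which induces CIITA in many cells, 2 of 9 genes were called up and 4 down at day 7, 3 and 4 at day 14, and 2 rose between the time points. The kinase gene JAK1 rose at both (1.44 ± 0.17, adjusted p = 6.02e-05, and 1.07 ± 0.17, adjusted p = 0.000570). The receptor chain gene IFNGR2 fell at day 7 (-1.35 ± 0.17, adjusted p = 8.59e-05) and rose afterwards (0.76 ± 0.17, adjusted p = 0.00647), and the inhibitor gene SOCS1 rose at day 14 (0.73 ± 0.14, adjusted p = 0.00180).

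**Figure D4:**
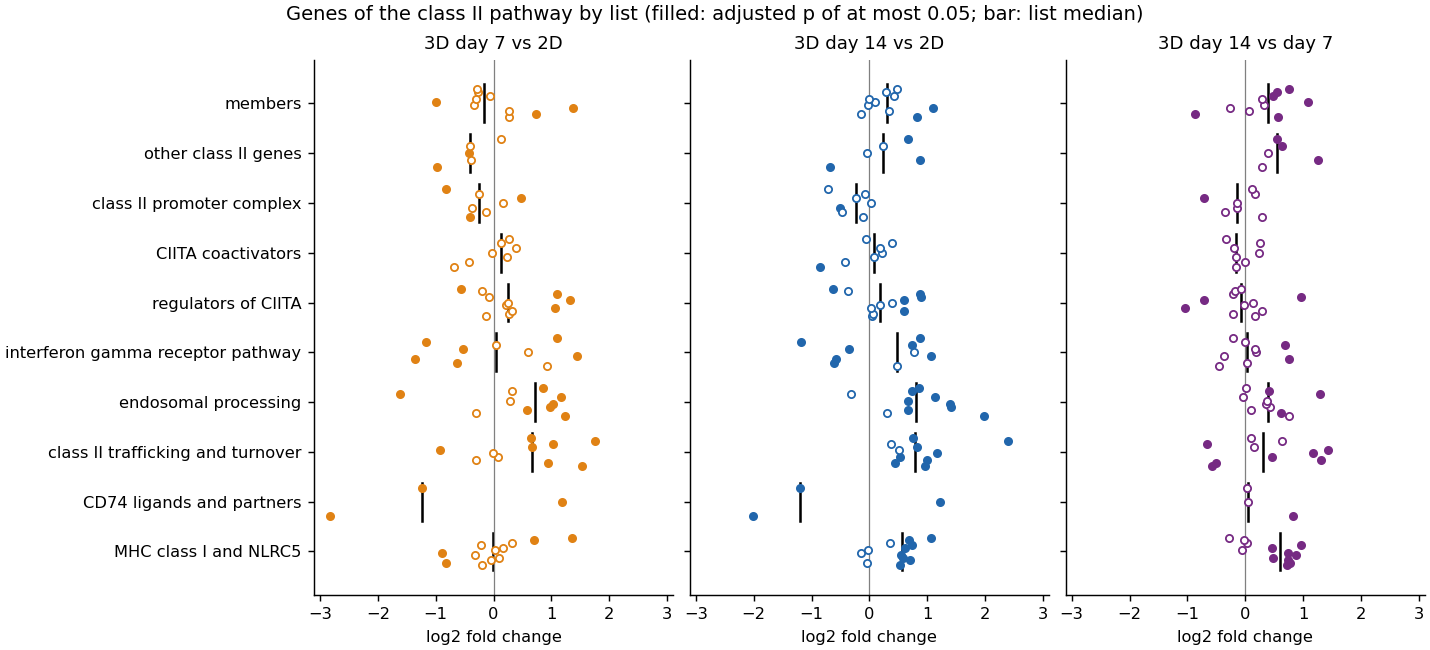
Log2 fold change (horizontal axis) of each tested gene of 10 lists in the 3 comparisons, filled where the adjusted p was at most 0.05, with the median of each list as a bar. The medians of the endosomal processing and trafficking lists lie between 0.66 and 0.80 against 2D, and the lists of class I genes and of the members are higher at day 14 than at day 7.

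The list of endosomal processing holds proteases that cut the invariant chain and antigens, the cathepsin inhibitor gene CST3 and PSAP, a saposin precursor gene. Of 10 genes tested, 6 rose and 1 fell at day 7, 8 rose at day 14 and 3 rose between the time points, with median log2 fold changes of 0.71, 0.80 and 0.40. CST3 was among the genes that rose in 3D_7d (1.23 ± 0.42, adjusted p = 0.0302) and in 3D_14d (1.98 ± 0.42, adjusted p = 0.00309), and PSAP was so in 3D_14d (0.74 ± 0.15, adjusted p = 0.00191). The level of CST3 was only 0.281 to 0.644 CPM in 2D, 0.969 to 1.29 in 3D_7d and 1.54 to 2.07 in 3D_14d. CST3 thus passed the filter of 1 CPM through 3D libraries alone, and its calls rest on very low levels. CTSH, which encodes the protease cathepsin H, was at 423 to 469 CPM in 2D, 880 to 976 CPM in 3D_7d and 894 to 1414 CPM in 3D_14d (1.03 ± 0.16, adjusted p = 0.000379, and 1.39 ± 0.17, adjusted p = 7.97e-05). The cathepsin D gene CTSD rose at day 14 (1.41 ± 0.16, adjusted p = 6.64e-05), while 55.9% of its exonic bases are shared with AC068580.4 and AC068580.3. SPPL2A, an intramembrane protease that clears the last fragment of the invariant chain, rose by 0.85 ± 0.14 at both times (adjusted p = 0.000389 and 0.000517). LGMN, an asparaginyl protease, was at 581 to 645 CPM in 2D, at 143 to 252 CPM in 3D_7d and at 411 to 633 CPM in 3D_14d. It fell by 1.61 at day 7 (SE 0.22, adjusted p = 0.000113) and rose by 1.29 ± 0.21 to day 14 (adjusted p = 0.00131), the same signs as HLA-DPB1. Between the time points CTSB (0.61 ± 0.15, adjusted p = 0.0107) and PSAP (0.42 ± 0.14, adjusted p = 0.0472) rose as well, and the call of PSAP was lost without any 1 library other than replicates 1 and 3 of 3D_14d (adjusted p = 0.0626 to 0.135).

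Of 10 tested genes for class II trafficking and turnover, 6 rose and 1 fell at day 7, 8 rose at day 14, and 4 rose and 3 fell between the time points. MARCH1, a ubiquitin ligase that removes class II molecules from the surface, was at 2.12 to 3.88 CPM in 2D, 9.28 to 11.2 CPM in 3D_7d and 11.4 to 18.4 CPM in 3D_14d (1.76 ± 0.26, adjusted p = 0.000247, and 2.39 ± 0.27, adjusted p = 4.99e-05). CD83, which opposes MARCH1, rose at day 7 (1.04 ± 0.16, adjusted p = 0.000278). The clathrin adaptor gene AP1B1 rose at both (1.54 ± 0.13, adjusted p = 5.81e-06, and 0.96 ± 0.13, adjusted p = 0.000142). The tetraspanin genes CD37 (1.31 ± 0.16, adjusted p = 0.000228), CD63 (1.18 ± 0.19, adjusted p = 0.00112) and CD81 (1.43 ± 0.23, adjusted p = 0.00113) rose from day 7 to day 14, and CD37 also at day 14 against 2D (1.00 ± 0.16, adjusted p = 0.000521). Among the partners of surface CD74, the coreceptor gene CD44 rose at both times (1.18 ± 0.20, adjusted p = 0.000517, and 1.22 ± 0.20, adjusted p = 0.000572). The chemokine receptor genes CXCR4 (-1.23 ± 0.19, adjusted p = 0.000339, and -1.19 ± 0.19, adjusted p = 0.000571) and ACKR3 (-2.83 ± 0.26, adjusted p = 1.10e-05, and -2.01 ± 0.26, adjusted p = 0.000116) fell at both. The ligand genes MIF and DDT share 92.3% and 53.6% of their exonic bases with other genes and were at most 1.55 CPM, so they were not read as expression.

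Class I genes, which share part of the X and Y box module and use NLRC5 in place of CIITA, gave a comparison with the members. Of 12 tested, 2 rose and 2 fell at day 7, 8 rose at day 14 and 8 rose between the time points, with median log2 fold changes of -0.01, 0.57 and 0.60. At day 7 TAPBP, which encodes tapasin, rose (1.35 ± 0.18, adjusted p = 0.000109) and HLA-F (-0.89 ± 0.18, adjusted p = 0.00169) fell. At day 14 TAPBP (1.07 ± 0.18, adjusted p = 0.000694), HLA-B (0.69 ± 0.16, adjusted p = 0.00473) and the immunoproteasome gene PSMB8 (0.62 ± 0.16, adjusted p = 0.00896) were higher than in 2D, the call of PSMB8 being lost without 2D replicate 2 (0.0536) or 3 (0.0598). HLA-F shares 39.3% and HLA-B 25.2% of their exonic bases with other genes. From day 7 to day 14 HLA-E (0.88 ± 0.16, adjusted p = 0.00241) and B2M (0.73 ± 0.14, adjusted p = 0.00362) rose. NLRC5 differed by 0.03 ± 0.17, -0.03 ± 0.17 and -0.05 ± 0.17 and was not called, where CIITA differed by 0.74, -0.14 and -0.88, and whether the 2 genes differ from each other was not tested.

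The 8 HLA members lie in a stretch of chromosome 6 from HLA-DRA to HLA-DPB1 that holds 34 genes of the table, 22 of them tested. Looked at after the members' values were known, 3 of these 22 rose and 4 fell at day 7, 10 rose and 2 fell at day 14 and 12 rose between the time points. Of all tested genes 22.2% rose and 21.2% fell at day 7, 19.0% and 17.2% at day 14 and 14.5% and 13.6% between the time points. The 22 include the 8 HLA members and other class II genes, so these counts partly repeat those already given. Neighbouring genes differed in direction: at day 7 HLA-DMB (1.37) and BRD2 (0.86 ± 0.13, adjusted p = 0.000208), which flank HLA-DMA (0.27), rose and the next gene, HLA-DOA (-0.97), fell.

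**Figure D5:**
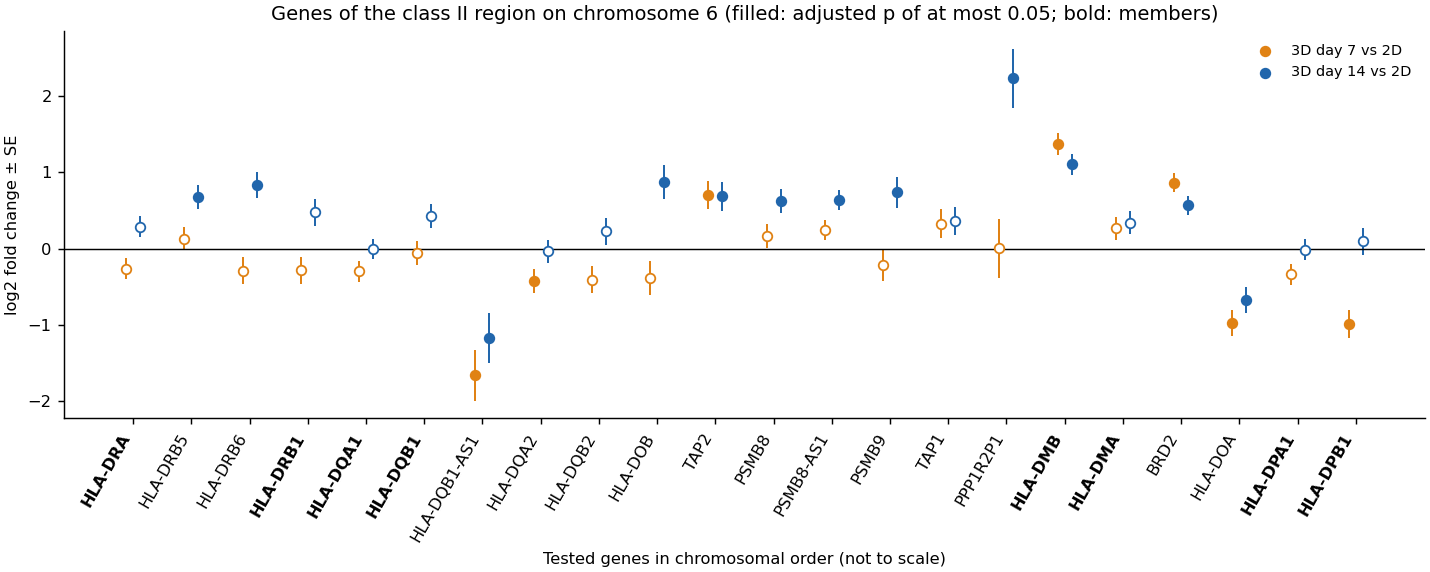
Log2 fold change ± SE (vertical axis) against 2D at both time points of the 22 tested genes from HLA-DRA to HLA-DPB1, in chromosomal order and not to scale, filled where the adjusted p was at most 0.05. HLA-DMB and BRD2 are higher and HLA-DOA is lower in both comparisons, and HLA-DPB1 is lower at day 7.

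The genes with profiles nearest to CIITA over the 9 libraries, by the root mean square (RMS) difference of mean-centred log2 CPM, were PI4KA (0.06), ACLY (0.11), EDC4 (0.12) and RBM4B (0.13). PI4KA was at 42.1, 49.0 and 52.0 CPM in 2D, 80.9, 69.7 and 91.6 CPM in 3D_7d and 30.9, 58.4 and 44.6 CPM in 3D_14d, with the dip in 3D_14d replicate 1 that CIITA showed. The RMS difference of CIITA to the other members was 0.53 for HLA-DMA to 0.99 for HLA-DPB1. Nearest to HLA-DRA among genes outside the members were TCEAL8 (0.05), SKAP1 (0.07), RAB9A (0.08) and GIT1 (0.08). Within the members HLA-DQB1 (0.10), HLA-DRB1 (0.13), HLA-DPA1 (0.13) and HLA-DQA1 (0.13) were closest to it and CIITA (0.70) was farthest.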

How the data were processed

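RNA-seq was performed by the authors on 9 samples of MEC1 cells, 3 per condition, using SMART-Seq v4 libraries for small RNA amounts and single reads. Per the labels and the methods, reads were trimmed with Trimmomatic (version 0.39), aligned to GRCh38 with STAR (version 2.5.3a) and counted per gene with featureCounts (version 1.6.4). The strand setting and the treatment of reads with several alignments are not given in the sources used here. The deposited values are raw counts, with no normalization, per gene symbol, and exon positions and lengths from the same table gave RPKM.

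Genes exceeding 1 CPM in 3 or more samples were tested in R (version 4.3.3) with TMM factors and the quasi-likelihood test of edgeR (version 4.0.16), fitted over all 9 samples with a mean per group. Benjamini-Hochberg adjustment was over all 13463 genes of a contrast. Ratios were compared with SciPy (version 1.17.1). Alternatives were other scalings and filters, the Wald test of DESeq2 (version 1.42.0), a fit of only the 6 samples compared, a block for the replicate number, each sample left out, a threshold of 0.01 and, added after the data had been seen, loess removal (span 0.4) of trends with exon length or GC content. The test was checked on simulated counts of 13563 genes for 3D_7d vs 2D. Of 96 genes changed by 1 on the log2 scale 61.5% were recovered, and of 99 changed by 2 89.9% were. Of the calls 5.13% fell on unchanged genes. In the data 22.2% of genes were called up and 21.2% down, a far larger part than was changed here. The simulated shares therefore do not give the recovery in the data. A simulated length slope of 0.3 was 0.000733 after removal.

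The members and the gene lists were chosen with earlier results of these data known. Named were the members, every tested gene among the other class II genes and the promoter complex, in each other list the 3 genes with the smallest p-value past the threshold in a comparison, and the 4 genes nearest in profile to CIITA and HLA-DRA. BRD2, CST3, PECAM1, COL1A1, PDGFRB and the genes of the closing observation were named after their values were seen. Some genes that this rule names are not reported here. Replicate numbers were not treated as pairs.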

Additional observations from a re-analysis of the deposited data

Results flagged for a closer look

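The difference from 2D was not the same at day 7 and day 14 for 6 members, by the test of the difference between the time points in the joint fit, in which the 2D libraries cancel out. It is the comparison between the time points already given, not a separate test of an effect of 3D culture. The difference from 2D was higher at day 14 for HLA-DRA by 0.55 on the log2 scale (adjusted p = 0.0105), HLA-DRB1 by 0.76 (adjusted p = 0.00778), HLA-DPB1 by 1.08 (adjusted p = 0.00134), HLA-DQB1 by 0.48 (adjusted p = 0.0377) and CD74 by 0.56 (adjusted p = 0.0102), and every 3D_14d library lay above every 3D_7d library for these 5 genes. For CIITA it was lower, at -0.88 (adjusted p = 0.0133), with every 3D_14d library below every 3D_7d library. Of all tested genes 14.5% were called up and 13.6% down between the time points, and 39.3% did not overlap. The differences of HLA-DRA and HLA-DQB1 did not pass the threshold with the trend with exon length removed. Without the filter on low counts HLA-DRA (adjusted p = 0.183), HLA-DQB1 (0.247) and CD74 (0.211) did not pass it. HLA-DQB1 also failed with any 1 3D_7d library left out (0.0683 to 0.108), CD74 without 3D_7d replicate 2 (0.0508) and CIITA without 3D_7d replicate 3 (0.0559). Groups of 3 libraries were not searched for single values far from the others.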

How the results depend on the processing

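Of 600 values of the members' log2 fold changes under alternatives, 533 kept their direction and side of the threshold, 25 lost the call, 30 gained one and 12 changed sign. For 86 fold changes of other named genes, 1590 of 1720 kept both. At day 7, the members called up numbered 1 at a threshold of 0.01 or with total counts alone, 3 with only the 6 samples or the length trend removed, HLA-DMA being added in both, and 1 to 2 with a library left out. Those called down numbered 2 with the Wald test of DESeq2 or with TMM factors without immunoglobulin, ribosomal, mitochondrial and class II genes, 4 with the GC trend removed, 5 with only the 6 samples or total counts, and 1 to 4 with a library left out (4, 3 and 2 without 3D_14d replicates 3, 1 and 2). At day 14 the members called up numbered 4 with DESeq2 and 2 to 6 with a library left out, the 6 being without 3D_14d replicate 3. Between the time points 2 were called up at 0.01 or without a filter and 3 with the length trend removed, and 3 to 6 with a library left out, the 3 being without 3D_7d replicate 2. Called down were 0 at 0.01, 2 with the length trend removed and 0 to 1 with a library left out. Of 73 other pathway genes, those down at day 14 numbered 5 at 0.01 and 5 (without 2D replicate 2) to 10 with a library left out, against 10, and those up between the time points 14 at 0.01 against 22. The cause was not tested.

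Values near 0 that changed sign were, with the length trend removed, HLA-DQB1 at day 7 (0.0155), CIITA (0.0593) and CREB1 (0.0435) at day 14, and HLA-DMA (-0.29), RFXANK (-0.0571) and NFYB (0.00833) between the time points. With the GC trend removed they were CREB1 (0.18) and NFYC (-0.0600) at day 14 and RFXANK (-0.0653) between the time points. With total counts they were HLA-DRB5 at day 7 (-0.0301), HLA-DPB1 (-0.13) and NFYC (-0.18) at day 14, and NFYC without a filter (-0.0253). With a library left out, the ranges at day 14 against 2D were -0.38 to 0.11 for CIITA, -0.12 to 0.0822 for HLA-DPA1, -0.13 to 0.26 for HLA-DPB1, -0.10 to 0.0660 for HLA-DQA1, -0.14 to 0.0400 for HLA-DQA2, -0.0669 to 0.0798 for NFYC and -0.34 to 0.14 for RFXANK. Between the time points they were -0.0106 to 0.22 for HLA-DMA, -0.0816 to 0.38 for RFXANK and -0.24 to 0.30 for RFXAP. The log2 ratio of CD74 to HLA-DR between the time points was 0.0216 with HLA-DRA alone and -0.24 to 0.0470 with a library left out, and HLA-DPB1 to HLA-DPA1 at day 14 was -0.0821 to 0.16.

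Same-numbered samples correlated from -0.10 to 0.19 in their deviations from the group means, and other pairs from -0.13 to 0.08. Between 2D and 3D_14d the same-numbered pairs (0.19, 0.11 and 0.09) all lay above the other pairs (-0.13 to 0.04). In the remaining pairs of groups every same-numbered value was negative. The labels do not say whether a number links samples, and these values cannot decide it. With the replicate number as a block, 2 members were called up and 1 down at day 7, 2 and 0 at day 14 and 5 and 1 between the time points, as without it. In the replicate block the calls of HLA-DQA2 (adjusted p = 0.0574) and CREB1 (0.0615) at day 7 and of PSAP between the time points (0.0575) were lost and NFYA was called at day 14 (-0.50, 0.0323). The pathway counts were 20 up and 13 down, 32 and 9, and 21 and 6, and the smallest p of the ratios was 0.25, the smallest that 3 pairs can give in the exact sign-flip test.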

Other observations

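Of 7 class II pseudogenes and antisense genes listed, 2 were tested. HLA-DRB6, a pseudogene beside HLA-DRB1, was at 28.01, 25.4 and 22.6 CPM in 2D, 20.5, 19.9 and 21.9 CPM in 3D_7d and 47.7, 35.3 and 52.0 CPM in 3D_14d, and rose at day 14 (log2 fold change 0.83 ± 0.17, adjusted p = 0.00278). Replicate 3 of 3D_14d was its highest library, where HLA-DRB1 had its lowest 3D_14d value. HLA-DQB1-AS1, antisense to HLA-DQB1, was at 3.18, 3.57 and 3.51 CPM in 2D, 1.23, 1.24 and 0.779 CPM in 3D_7d and 1.70, 1.31 and 1.55 CPM in 3D_14d, and fell at both time points (-1.66 ± 0.33, adjusted p = 0.00168, and -1.17 ± 0.33, adjusted p = 0.0145), while HLA-DQB1 was called in neither. HLA-DQB1-AS1 shares 32.1% of its exonic bases with HLA-DQB1, and with the strand setting not given the reads of a gene and its antisense partner cannot be told apart. HLA-DRB6 shares 0% of its exonic bases with other genes, but the assignment of reads among similar HLA-DRB sequences is uncertain.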
